A study of Danio rerio with 5 samples.

Results

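Border zone cardiomyocytes with high and low levels of nppb were compared within a single plate of cells collected 1 day post-cryo-injury (dpci). nppb encodes natriuretic peptide B, a hormone that stressed heart muscle releases. The 2 groups were selected on measured values. Of 384 wells, 283 held at least 1000 UMIs (unique molecular identifiers, 1 per counted transcript) outside the ERCC spike-ins. In 228 of these, myl7, a myosin light chain of heart muscle, held at least 1% of the UMIs. The 228 wells were ranked by nppb UMIs divided by non-ERCC UMIs. The upper 76 are called nppb-high, the lower 76 nppb-low and the remaining 76 middle wells. In the whole series, 919 of 1920 wells on 5 plates passed the same filter.

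All cells came from cardiac ventricles of adult TL fish that carried TgBAC(nppa:mCitrine), a fluorescent reporter driven by regulatory DNA of nppa, and all ventricles had been injured at the tip with a cooled copper probe. nppb-high and nppb-low cells thus share strain, reporter, injury, day, sort and plate. The sort took reporter-positive cells, which the study describes as border zone cardiomyocytes. No uninjured heart is part of the comparison, and where in the ventricle a cell lay was not measured. No label ties a well to a fish, and differences between fish cannot be told apart from differences between cells of 1 fish. Plates of 3 dpci (1 plate) and 7 dpci (3 plates) were used for a comparison on wells that had no part in the choice of the 1 dpci groups.

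nppa and nppb are the fetal heart natriuretic peptides. Both are low in healthy ventricular muscle and are switched on by wall stretch and injury, and nppa marks the muscle beside a wound in the zebrafish heart. Immediate early genes such as FOS, JUN, ATF3 and EGR1 encode transcription factors that respond within minutes to stress, stretch or growth signals. Heat shock chaperones refold damaged proteins, and in muscle several of them attend to the turnover of sarcomeres, the contractile units built of actin thin filaments and myosin thick filaments.

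The ranking divided the wells widely. The share of nppb in nppb-high wells was 923 CPM (UMIs of the gene scaled to a common total) at the lowest, 1564 CPM at the median and 10270 CPM at the highest well. In nppb-low wells it was 0 at the lowest and at the median and 290 CPM at the highest. Of 1028 nppb UMIs in the 228 wells, 78.3% lay in nppb-high wells and 2.04% in nppb-low wells. All 59 wells without an nppb UMI were nppb-low. The lowest nppb-high well had 9.01 UMIs of 9762 and the highest middle well, at 918.6 CPM, had 5 of 5443. The lowest middle well had 1 UMI of 3339 (299.5 CPM) and the highest nppb-low well 1 of 3448 (290 CPM). Single molecules therefore decided the place of many wells, and 16 of the 76 nppb-high wells held only 1 or 2 nppb UMIs.

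**Figure D1:**
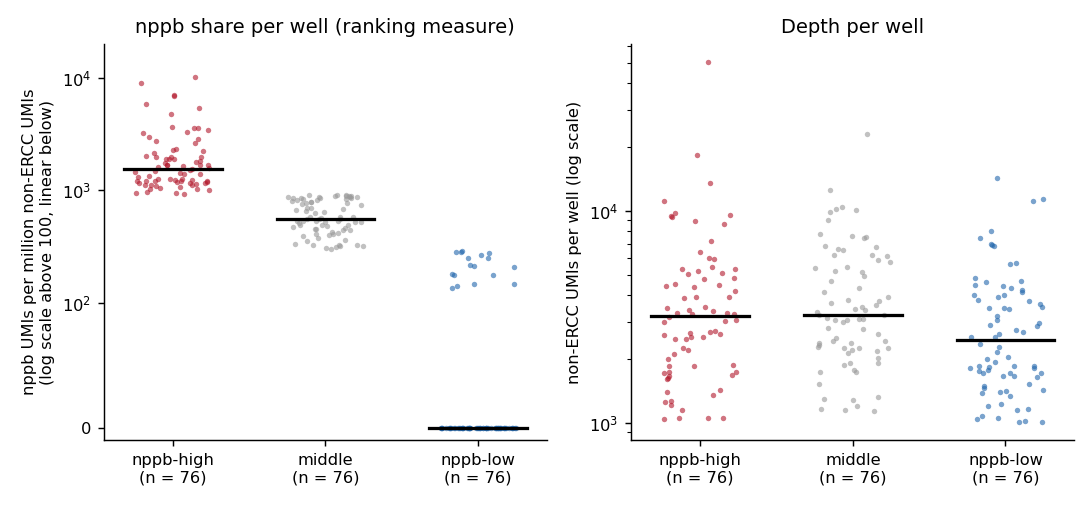
Each point is 1 well of the 1 dpci plate, with nppb-high wells at the left, middle wells in the centre and nppb-low wells at the right (76 each), and bars mark medians. The left panel gives the ranking measure, nppb as CPM of non-ERCC UMIs, and the right panel non-ERCC UMIs per well on a log axis, where 1 nppb-high well of 50405 UMIs stands far above all others.

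Depth differed between the groups. nppb-high wells held 1038 to 50400 UMIs with a median of 3189, and nppb-low wells held 1002 to 14290 with a median of 2442. The medians of detected genes were 896 in nppb-high wells and 663 in nppb-low wells. Mitochondrial transcripts held a median of 6.97% of UMIs in nppb-high wells and 5.19% in nppb-low wells. The ERCC share had medians of 34.9% and 40.9% in nppb-high and nppb-low wells. Results with wells brought to a common depth, and without the deepest wells, are given below. How much of the differences goes with depth or mitochondrial content was not tested.

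One nppb-high well stood apart. It held 50405 UMIs and 4679 detected genes, against 18422 UMIs in the next deepest nppb-high well and 14287 in the deepest nppb-low well, and made up 12.3% of the summed UMIs of its group. Mitochondrial transcripts were 27.5% of its UMIs, and immediate early genes 3.32%. Its nppb share, 3693 CPM, was the 8th highest. For 16 of the 39 genes described below as higher, this well alone supplied at least 50% of the UMIs of the nppb-high group. Ratios are therefore given for all wells, without this well, without the highest well of each gene in each group, and with each well weighed the same.

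The wells carried the transcripts of cardiomyocytes. Of 11 IDs matched to cardiomyocyte markers, 10 had UMIs in nppb-high wells and 10 in nppb-low wells. Together they held 2.47% to 20.2% of UMIs in nppb-high wells and 2.62% to 20.8% in nppb-low wells. The list includes myl7, so the filter set part of this share in advance. Medians were 10.15% for the list and 4.13% for myl7 alone in nppb-high wells, against 11.51% and 5.45% in nppb-low wells. Markers of macrophages, neutrophils, endothelium, epicardium and fibroblasts, erythrocytes, thrombocytes and lymphocytes summed to 0 to 1.5% in nppb-high wells, with a median of 0.103%. In nppb-low wells they summed to 0 to 2.03%, with a median of 0.0781%. They reached 1% in 2 nppb-high wells and in 1 nppb-low well. Smooth muscle markers, not part of this sum, held at most 0.101% in nppb-high wells and 0.175% in nppb-low wells. MPEG1, MFAP4, lyz, TCF21, TBX18, MYH11 and itga2b had no UMI in either group, but other members of these lists did. Of 16 macrophage IDs, 10 had a UMI in nppb-high wells and 10 in nppb-low wells. For 8 endothelial IDs the numbers were 8 and 6, and for 13 epicardial or fibroblast IDs 10 and 9. Macrophage markers were found in 35 nppb-high and 19 nppb-low wells, and endothelial markers in 27 and 26. Without wells rich in markers of other cells, with 74 wells in each group, 37 of 623 genes were at least 2-fold higher in nppb-high wells and 2 lower. With all wells it was 39 and 6 of 631 genes. The part of the markers in the wells that remained was not tested.

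Levels were taken from UMIs summed over the wells of each group, as CPM of the summed UMIs without ERCC and mitochondrial genes (298067 in nppb-high wells and 221766 in nppb-low wells). With 1 plate there is no replicate and no test between the groups. Intervals are exact 95% intervals that cover counting error only, and 2-fold is used as a mark of size. Of 631 genes with at least 100 UMIs over both groups, nppb itself left out, 39 were at least 2-fold higher in nppb-high wells (6.18% of genes) and 6 at least 2-fold lower (0.951%). The median log2 ratio of the 631 genes was -0.05. The minimum applies to the sum of both groups, so a gene can pass it through the group where it is higher. Middle wells lay between the groups for 36 of the 39 genes and for 4 of the 6. As these genes were picked for a large difference between the outer groups, such a place was likely in advance. It is no measure of a graded relation with nppb. Without the deepest well, 28 of the 39 ratios still passed 2-fold and 38 kept their sign. With each well weighed the same, 25 of the 39 and 1 of the 6 passed. Without the highest well of each gene in each group, 29 of the 39 and 5 of the 6 passed. Through all 3 of these changes, made one at a time, 21 of the 39 passed, and of the 6 only CAVIN1 did. Counted afresh without the deepest well, 20 of 591 genes were at least 2-fold higher (3.38%) and 5 at least 2-fold lower (0.846%). Some well filters made the counts smaller, with 14 higher and 3 lower of 483 genes without wells above 3 times the median depth, and 8 higher and 2 lower of 485 genes with myl7 at 3% or more. Both of these filters leave out the deepest well, whose myl7 share was 2.57%. A doubled minimum depth per well, which keeps that well, left 39 higher and 5 lower of 588 genes, with 52 wells in each group. With each well thinned to 1000 UMIs, 1 of 231 genes was higher and 0 lower.

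**Figure D2:**
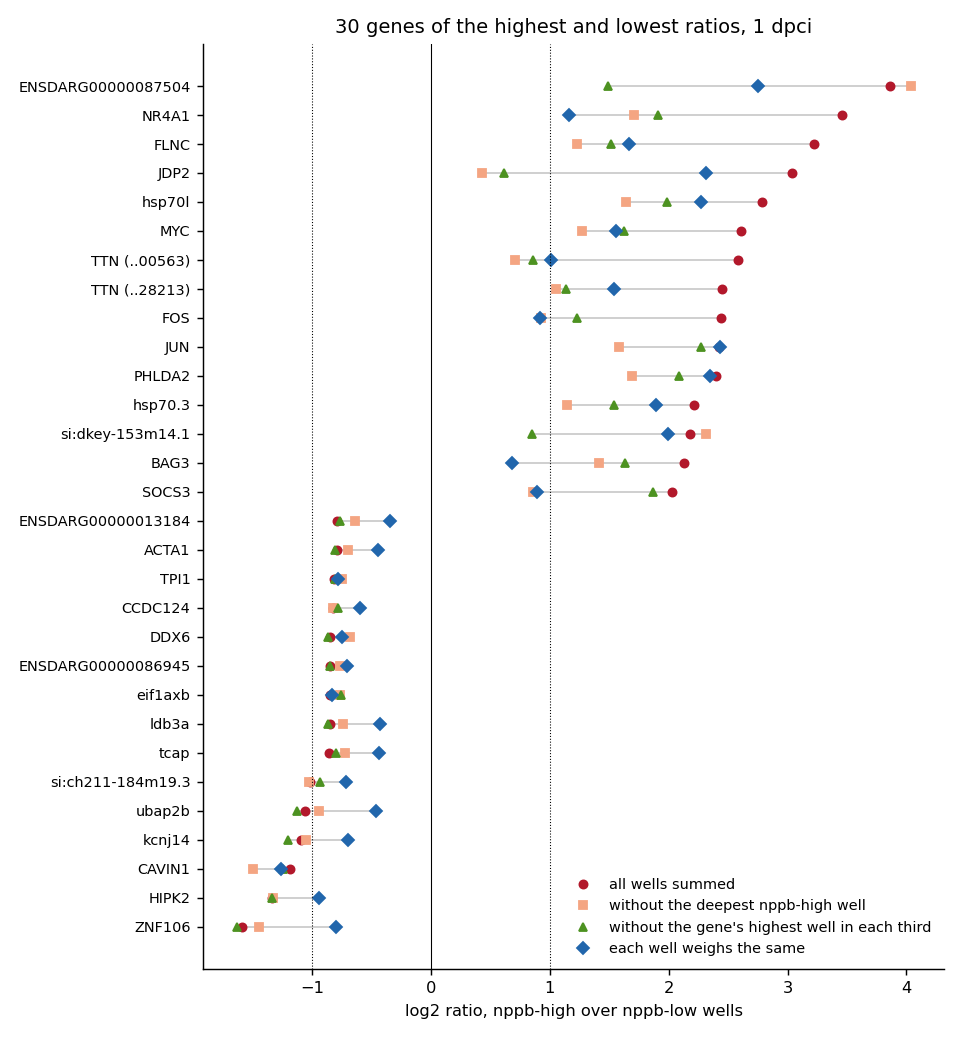
The 15 highest and 15 lowest log2 ratios of nppb-high over nppb-low wells at 1 dpci, among genes with 100 or more UMIs and a UMI in at least 20% of the wells of the group where they were higher. The 4 symbols give the ratio with all wells summed, without the deepest nppb-high well, without the highest well of the gene in each group, and with each well weighed the same, and dotted lines mark 2-fold. Ratios of the genes at the top, such as JDP2 (3.04 with all wells and 0.43 without the deepest well), shift far more between the symbols than those at the bottom.

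The immediate early genes were the group with the highest ratios. Of 34 IDs of the list in the table, 9 had at least 100 UMIs, and those 9 were past 2-fold in nppb-high wells, where 6.18% of all genes were, with a median log2 ratio of 2.42, against -0.05 over all genes. Several of them reached 100 UMIs only through the nppb-high wells, so the count and the median are no measure of the list as a whole. Without the deepest well 4 members had 100 UMIs and 2 of them were past 2-fold. The list as a whole held 0.728% of UMIs in nppb-high wells and 0.183% in nppb-low wells. Without the deepest well its share in nppb-high wells was 0.365%, and the median log2 ratio of those 4 members was 1.16. Per well, the list held 0 at the lowest, 0.248% at the median and 3.32% at the highest of the nppb-high wells, against 0, 0.124% and 0.953% in nppb-low wells. Middle wells had a median of 0.187%. The groups overlapped widely, since the highest nppb-low wells lay above most nppb-high wells.

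FOS, a subunit of the AP-1 transcription factor, had 1807 CPM (539 UMIs) in nppb-high wells and 333.9 CPM (74 UMIs) in nppb-low wells, a log2 ratio of 2.44 (2.08 to 2.81). Its level per well was 0 at the lowest, 269.6 CPM at the median and 10190 CPM at the highest in nppb-high wells, against 0, 0 and 5811 CPM in nppb-low wells. The deepest well gave 69.2% of its UMIs in the nppb-high group, and without that well the log2 ratio was 0.93. At a common depth of 1000 UMIs per well, 33.6% of nppb-high wells and 23.9% of nppb-low wells are expected to hold a FOS UMI, where the observed shares were 60.5% and 46.1%. Both measures place FOS higher in nppb-high wells, by less than the summed ratio shows. Over all alternatives its log2 ratio was 0.05 at the lowest and 3.23 at the highest.

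JUN, the partner of FOS in AP-1, had 411 CPM (122 UMIs) in nppb-high wells and 76.7 CPM (17 UMIs) in nppb-low wells, a log2 ratio of 2.42 (1.68 to 3.24), which was 1.58 without the deepest well and 2.43 with each well weighed the same. It was found in 34.2% of nppb-high wells and 10.5% of nppb-low wells, and at the common depth in 15.2% of nppb-high wells and 3.80% of nppb-low wells. JUND, a related AP-1 subunit, had a log2 ratio of 1.43 (0.86 to 2.03) and 1.46 without the deepest well, with 16.6% of nppb-high wells and 5.40% of nppb-low wells at the common depth. ATF3, a stress-induced factor of the same family, had 775.4 CPM in nppb-high wells and 212 CPM in nppb-low wells. Its log2 ratio was 1.87, or 1.39 without the deepest well.

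Other members of the list leaned on 1 well. NR4A1, an orphan nuclear receptor, had 347.9 CPM in nppb-high wells and 31.6 CPM in nppb-low wells (log2 ratio 3.46), with 74% of its nppb-high UMIs in the deepest well and a log2 ratio of 1.71 without it. FOSB had a log2 ratio of 3.29 with that well and 1.2 without it, and MYC, a growth-promoting factor, 2.61 with it and 1.27 without it. SOCS3, a feedback inhibitor of cytokine signalling, had 2.03 with it and 0.86 without it. egr1 had 2.33 with the well, -0.04 without it, and 0.78 without its highest well in each group.

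PHLDA2, GADD45B and JDP2 do not belong to the list. PHLDA2, a small pleckstrin-homology protein, had 356.7 CPM in nppb-high wells and 67.6 CPM in nppb-low wells (log2 ratio 2.40, 1.61 to 3.28), and was found at the common depth in 14.5% of nppb-high wells and 3.44% of nppb-low wells. Without the deepest well its log2 ratio was 1.69. JDP2, a repressor that binds AP-1 partners, had 3.04 with that well and 0.43 without it. GADD45B, induced by stress, had 3.37 with it and 1.12 without it.

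Heat shock chaperones gave a mixed picture. Of 14 members with at least 100 UMIs, 5 were past 2-fold higher (6.18% over all genes) and 0 lower in nppb-high wells, with a median log2 ratio of 0.47. Without the deepest well it was 2 of 12, and without the highest well of each gene 2 of 11. Some members passed the minimum through nppb-high wells, such as hsp70.3, with 93 UMIs there and 15 in nppb-low wells. The counts are therefore no measure of the list as a whole. Together the list held 1.8% of UMIs in nppb-high wells and 1.19% in nppb-low wells, and 1.61% in nppb-high wells without the deepest well. Per well the list held 0.421% at the lowest, 1.5% at the median and 3.17% at the highest in nppb-high wells, against 0.428%, 1.2% and 2.40% in nppb-low wells. Middle wells had a median of 1.29%.

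hsp70l, a stress-inducible chaperone, had 1714 CPM (511 UMIs) in nppb-high wells and 248.1 CPM (55 UMIs) in nppb-low wells, with 477.3 CPM in middle wells. Its level per well was 0, 160.6 and 9850 CPM at the lowest, median and highest nppb-high well, against 0, 0 and 4767 CPM in nppb-low wells. The log2 ratio was 2.79 (2.39 to 3.22), 1.64 without the deepest well and 2.28 with each well weighed the same. At the common depth, 31.5% of nppb-high wells and 12.1% of nppb-low wells hold it. hsp70.3, a close relative, had a log2 ratio of 2.21 and 1.14 without the deepest well. As the 2 sequences are alike, their reads may be shared between them.

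HSPA2, a further Hsp70 outside the list, had 371.7 CPM in nppb-high wells and 45.1 CPM in nppb-low wells, with log2 ratios of 3.04 with the deepest well and 1.35 without it.

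hspb9l, a small heat shock protein by its name and not a member of the list, had 3468 CPM (1034 UMIs) in nppb-high wells and 1310 CPM (290 UMIs) in nppb-low wells, a log2 ratio of 1.41 (1.22 to 1.60) and 1.25 without the deepest well. The median well held 1883 CPM in nppb-high wells and 657.7 CPM in nppb-low wells, and the common-depth shares were 69.4% and 47.6% of nppb-high and nppb-low wells. BAG3, a co-chaperone that clears damaged filamin, had 532.4 CPM in nppb-high wells and 121.7 CPM in nppb-low wells (log2 ratio 2.13, 1.42 without the deepest well and 0.68 with each well weighed the same). UNC45B, which folds the myosin head, had a log2 ratio of 1.37 (0.72 to 2.08) and 1.31 without the deepest well. hsp90aa1.1, the muscle form of Hsp90 in zebrafish, had 1.88 with that well and 0.80 without it.

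**Figure D3:**
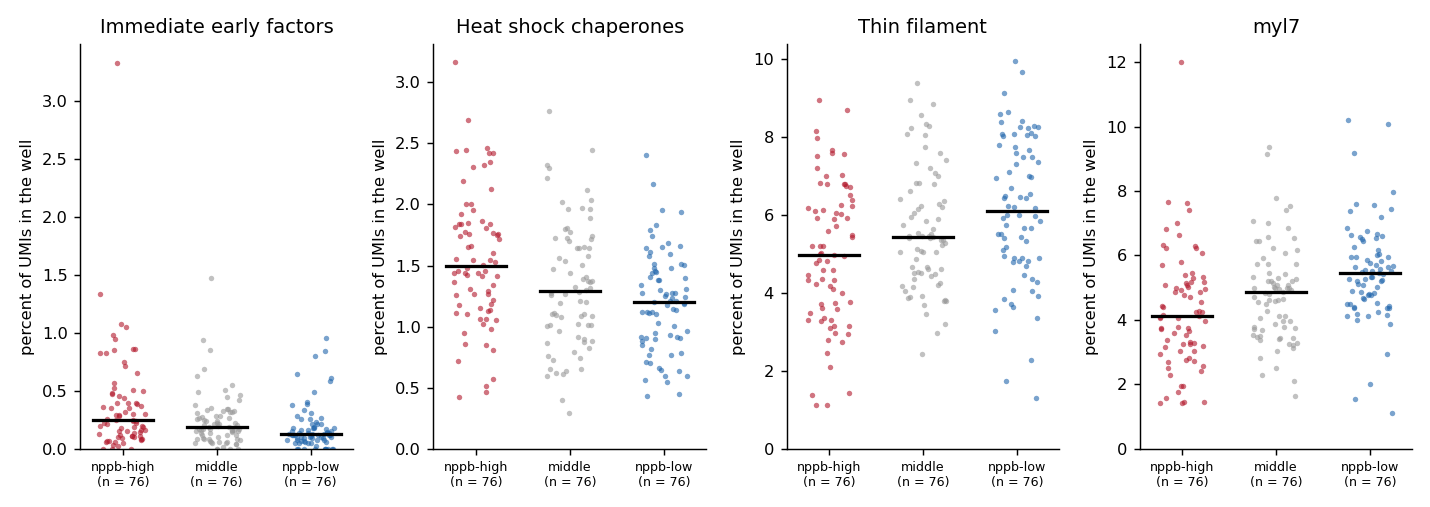
Percent of the UMIs in a well held by 2 gene lists that were higher in nppb-high wells and by thin filament genes and myl7, which were lower, with 1 point per well, nppb-high wells left, middle wells centre and nppb-low wells right (76 each), and bars at medians. Medians of immediate early genes were 0.248% in nppb-high and 0.124% in nppb-low wells, and those of myl7 4.13% and 5.45%, while the points of the groups overlap throughout.

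The genes of the contractile apparatus went both ways. Of 8 thin filament genes with at least 100 UMIs, 0 were past 2-fold, and the median log2 ratio was -0.40. The list held 4.84% of UMIs in nppb-high wells and 6.35% in nppb-low wells, with 5.44% in middle wells. ACTA1 (ENSDARG00000055618), an alpha-actin, had 6559 CPM in nppb-high wells and 11340 CPM in nppb-low wells, a log2 ratio of -0.79 (-0.88 to -0.70) and -0.45 with each well weighed the same. Its median well held 4315 CPM in nppb-high wells and 8046 CPM in nppb-low wells. ACTC1 (ENSDARG00000057911), named for the cardiac alpha-actin and outside the list, went the other way, with 1294 CPM in nppb-high wells and 352.2 CPM in nppb-low wells, a log2 ratio of 1.88 (1.53 to 2.25) and 1.65 without the deepest well. The actin genes are near copies of each other, so how reads were divided among them is uncertain.

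tnnc1a, cardiac troponin C, had 4226 CPM in nppb-high wells and 5773 CPM in nppb-low wells, a log2 ratio of -0.45 (-0.56 to -0.34). tcap, telethonin, which caps titin at the Z-disc, had 789 CPM in nppb-high wells and 1432 CPM in nppb-low wells, and ldb3a, another Z-disc protein, had 379.2 CPM and 685.9 CPM in nppb-high and nppb-low wells. Their log2 ratios were -0.86 each, and -0.44 and -0.43 with each well weighed the same. myl7, which the filter required, was lower too. It held 1.41% at the lowest, 4.13% at the median and 12% at the highest nppb-high well, against 1.11%, 5.45% and 10.2% in nppb-low wells. It was under 3% of UMIs in 17 nppb-high, 5 middle and 4 nppb-low wells. The log2 ratio of its summed level was -0.42 (-0.46 to -0.38).

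Within the thick filament list, 3 of 8 genes were past 2-fold higher (6.18% over all genes) and 0 lower. Without the deepest well 2 were higher and 1 lower of 8, and without the highest well of each gene 1 was higher and 0 lower of 7. The median log2 ratio of the 8 genes was 0.67 with all wells. The list as a whole, which includes myl7, was lower, with 8.78% of UMIs in nppb-high wells and 9.56% in nppb-low wells. Its median per well was 8.41% in nppb-high wells and 9.54% in nppb-low wells. myh7ba, a myosin heavy chain, had 352.9 CPM (105 UMIs) in nppb-high wells and 54.1 CPM (12 UMIs) in nppb-low wells, and its log2 ratio of 2.71 (1.84 to 3.7) was 2.74 without the deepest well. It was found in 13 nppb-high wells and 5 nppb-low wells. Both IDs of TTN, the giant spring protein of the sarcomere, had high summed ratios, 2.59 (ENSDARG00000000563) and 2.45 (ENSDARG00000028213). They were 0.70 and 1.05 without the deepest well. At the common depth, ENSDARG00000028213 was found in 42.6% of nppb-high wells and 43.2% of nppb-low wells, and ENSDARG00000000563 in 21.6% and 26.3%, so that at equal depth TTN was not found in more nppb-high wells. With myl7 at 3% or more, the log2 ratio of ENSDARG00000028213 was -0.50. MYH6 had a log2 ratio of 0.91 with the deepest well and -1.01 without it.

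Of 11 Z-disc and costamere genes 2 were past 2-fold higher (6.18% over all genes) and 0 lower, with a median log2 ratio of -0.09. The 2 were FLNC and xirp1, which also belong to the border zone and stress list. Without the deepest well 1 of 10 was past 2-fold higher. DES, desmin, the intermediate filament that ties myofibrils together, had 2097 CPM in nppb-high wells and 1215 CPM in nppb-low wells. Its log2 ratio was 0.79 (0.58 to 1.00), 0.79 without the deepest well and 1.1 with each well weighed the same. It was found at the common depth in 66.8% of nppb-high wells and 38.9% of nppb-low wells. FLNC, filamin C, which links actin at the Z-disc, had 1433 CPM in nppb-high wells and 153.4 CPM in nppb-low wells, with 78% of its nppb-high UMIs in the deepest well and a log2 ratio of 3.22 with that well and 1.23 without it. xirp1, a protein of the intercalated disc, had 1.48 with it and 0.71 without it. tuba8l4, an alpha-tubulin, had 577.5 CPM in nppb-high wells and 257 CPM in nppb-low wells, a log2 ratio of 1.17 (0.73 to 1.63) and 1.30 without the deepest well.

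krt8, an epithelial keratin, had 538 CPM in nppb-high wells and 198.4 CPM in nppb-low wells (log2 ratio 1.44, 0.95 to 1.95). trim63a, related to the ubiquitin ligase MuRF1 that marks sarcomere proteins for breakdown, had 352.5 CPM in nppb-high wells and 103.7 CPM in nppb-low wells. Its log2 ratio was 1.77 (1.1 to 2.48) and 1.90 without the deepest well, and it was found at the common depth in 19.7% of nppb-high wells and 5.89% of nppb-low wells. mcl1a, which holds off apoptosis, had 453.8 CPM in nppb-high wells and 117.2 CPM in nppb-low wells, a log2 ratio of 1.95 (1.34 to 2.62) and 1.71 without the deepest well. slc25a55a, a carrier of the inner mitochondrial membrane, had a log2 ratio of 1.76 (1.23 to 2.32) and 1.57 without it.

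nppa, the gene behind the reporter, had 2389 CPM (712 UMIs) in nppb-high wells and 1152 CPM (255 UMIs) in nppb-low wells, a log2 ratio of 1.05 (0.85 to 1.27). It was 0.72 without the deepest well. Per well it was 0, 982.6 and 18020 CPM at the lowest, median and highest nppb-high well, against 0, 865.8 and 7489 CPM in nppb-low wells. At the common depth it was found in 58.2% of nppb-high wells and 52.7% of nppb-low wells. Across the 228 wells the share of nppa had a Spearman's rho of 0.135 with that of nppb, and across the 76 nppb-high wells 0.368. These values describe wells of 1 plate, which share a library, and carry no test.

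Of 77 nuclear OXPHOS genes, which encode the respiratory chain and ATP synthase, 0 were past 2-fold and the median log2 ratio was -0.07. Of 17 glycolysis genes, 1 was past 2-fold higher (6.18% over all genes), HK1, at 1.04 with all wells and 0.63 without the deepest well. Without that well 0 of 14 were past 2-fold. The glycolysis list held 3.66% of UMIs in nppb-high wells and 4.38% in nppb-low wells, and its share per well had a rho of -0.29 with that of nppb over the 228 wells. TPI1, triosephosphate isomerase, had 1515 CPM in nppb-high wells and 2674 CPM in nppb-low wells, a log2 ratio of -0.82 (-1.0 to -0.64) that was -0.78 with each well weighed the same. GAPDHS, a glyceraldehyde-3-phosphate dehydrogenase, lay higher, with 540.5 CPM in nppb-high wells and 311.2 CPM in nppb-low wells. cycsb, a cytochrome c, had 2111 CPM in nppb-high wells and 3303 CPM in nppb-low wells (log2 ratio -0.65). Transcripts of the 13 named mitochondrially encoded genes held 8.19% of UMIs in nppb-high wells and 5.26% in nppb-low wells, and 6.91% in nppb-high wells without the deepest well.

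Of 5 border zone and stress genes, 2 were past 2-fold higher (6.18% over all genes), FLNC and xirp1, and the median log2 ratio was 0.79. Without the deepest well 1 of 5 was, with a median of 0.71. Per well, however, the list held a median of 1.17% of UMIs in nppb-high wells and 1.33% in nppb-low wells, and its rho with nppb over the 228 wells was 0.0192. Of 8 genes of calcium handling and ion transport, 1 was past 2-fold higher (6.18% over all genes), with and without the deepest well. It was camk2d2, a calcium-dependent kinase (log2 ratio 1.13), and the median of the list was 0.44. Of 70 cytosolic ribosomal protein genes, 0 were, with a median log2 ratio of -0.11, and of 16 genes of the TCA cycle and malate-aspartate shuttle 0 were, with a median of -0.10. Of 8 fatty acid oxidation genes 0 were, with a median of 0.19, and of 9 antioxidant and hypoxia genes 0 were, with a median of -0.09. Of 4 cardiac transcription factors with at least 100 UMIs, 0 were. Cell cycle genes held 56 UMIs in nppb-high wells and 51 in nppb-low wells, and none of them reached 100 UMIs, so no difference was detectable at this depth.

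The 6 genes past 2-fold lower were scattered in function. CAVIN1, a coat protein of caveolae, had 261.9 CPM (78 UMIs) in nppb-high wells and 595.7 CPM (132 UMIs) in nppb-low wells. Its log2 ratio was -1.19 (-1.61 to -0.77), -1.50 without the deepest well and -1.26 with each well weighed the same. It was found at the common depth in 14.6% of nppb-high wells and 29% of nppb-low wells. ZNF106, a zinc finger protein that binds RNA, had -1.60 (-2.04 to -1.16), and HIPK2, a kinase of stress signalling, had -1.34 (-1.98 to -0.73). kcnj14, an inward rectifier potassium channel, had 342.4 CPM in nppb-high wells and 731 CPM in nppb-low wells. Its log2 ratio was -1.09, and -0.70 with each well weighed the same. ubap2b had -1.06 and the unannotated si:ch211-184m19.3 had -1.02.

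**Figure D4:**
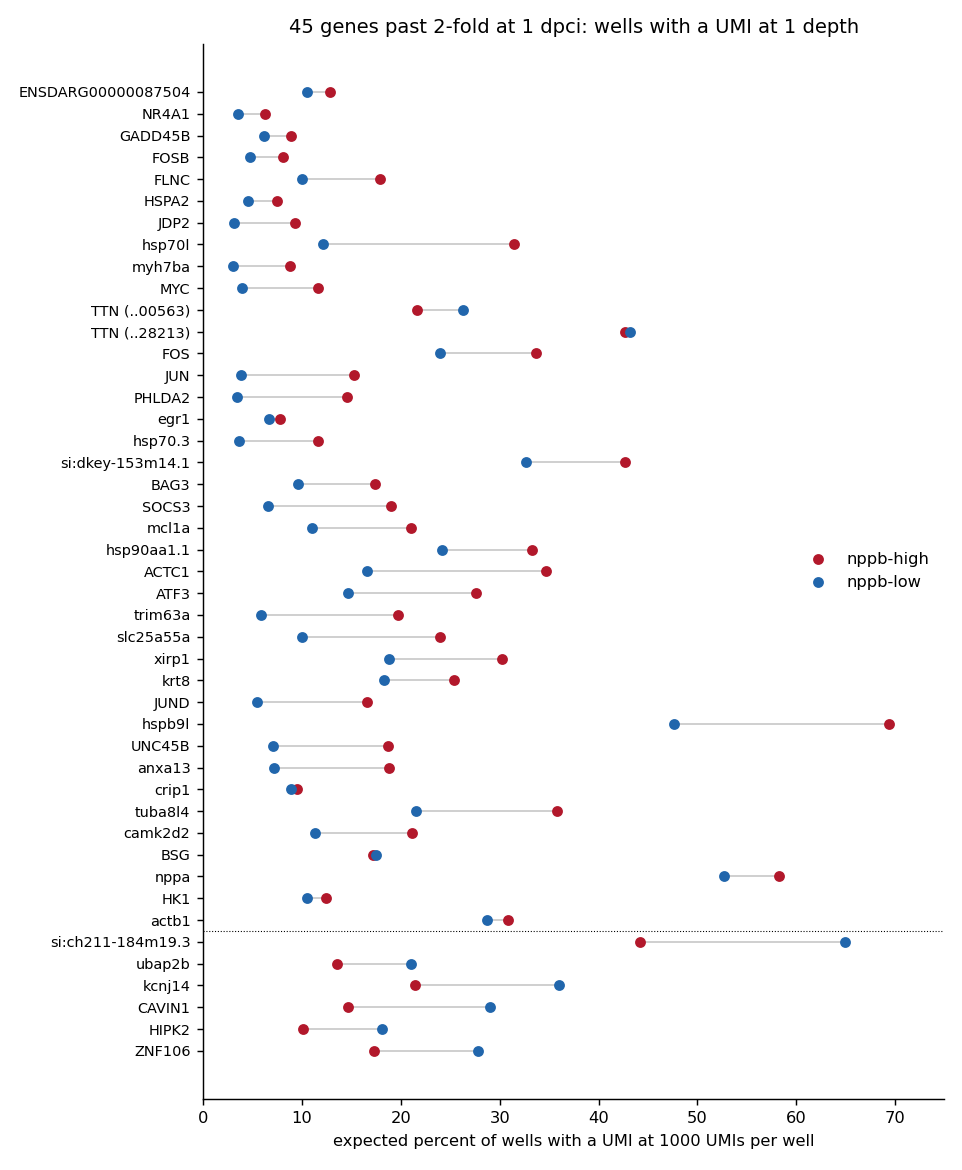
For the 45 genes past 2-fold at 1 dpci, in order of their log2 ratio, the expected percent of nppb-high and of nppb-low wells that hold a UMI of the gene when each well is brought to 1000 UMIs. Genes below the dotted line were lower in nppb-high wells. hspb9l (69.4% of nppb-high and 47.6% of nppb-low wells) and hsp70l (31.5% and 12.1%) lie wide apart, while the TTN IDs do not.

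2 further genes had most of their nppb-high UMIs in single wells. ENSDARG00000087504 had 1702 CPM in nppb-high wells and 117.2 CPM in nppb-low wells, with 85.4% of its nppb-high UMIs in 1 well, and si:dkey-153m14.1 had 2581 CPM in nppb-high wells and 568.3 CPM in nppb-low wells, with 62.8% in 1 well. Those wells were not the deepest one. Without the highest well of the gene in each group their log2 ratios were 1.49 and 0.85, against 3.86 and 2.18 with all wells.

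Immediate early genes and chaperones were also compared well by well. A well was counted as high for a list when it was among the 76 highest of the 228 wells. For the immediate early list 36 nppb-high, 26 middle and 14 nppb-low wells were, and for the heat shock list the numbers were the same, 36, 26 and 14. For TTN, 18 nppb-high, 32 middle and 26 nppb-low wells were. All 3 were high together in 10 nppb-high wells, 5 middle wells and 0 nppb-low wells, and none of the 3 was high in 19 nppb-high, 20 middle and 36 nppb-low wells. Across the 76 nppb-high wells the shares of the immediate early and heat shock lists had a rho of 0.153, and across all 228 wells of 0.275. The immediate early list held a median of 0.248% of UMIs in nppb-high wells, at a median depth of 3189, so few UMIs stand behind each share. How far counting error lowers the rho values was not tested, and no overlap expected without a tie was computed. Within nppb-high wells the rho of nppb with the immediate early list was 0.0954, and with myl7 it was -0.487.

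The same split was then made on the plates of 3 dpci and 7 dpci, with the plate as the replicate. nppb was scarcer there. In the upper group, 69 of 69 wells at 3 dpci held an nppb UMI, but 17 of 32, 40 of 65 and 40 of 63 did on plates 1, 2 and 3 of 7 dpci, so the upper group of each 7 dpci plate also held wells without one. Every nppb-low well on these plates had 0 nppb UMIs, and since ties were broken by depth, nppb-low wells were deeper. On the 4 plates, from 3 dpci to plate 3 of 7 dpci, the median depth was 2260, 1131, 2401 and 2471 UMIs in nppb-high wells, against 3135, 2755, 4626 and 3768 UMIs in nppb-low wells. Of 4663 genes tested with edgeR's quasi-likelihood test on 8 sums, with the plate as a block, 6 rose in nppb-high wells (0.129%) and 11 fell (0.236%) at a Benjamini-Hochberg adjusted p under 0.05. At an unadjusted p under 0.05 the numbers were 80 and 118. DESeq2 with the same design called 0 and 1, with 34 and 29 at an unadjusted p under 0.05. Plate 1 of 7 dpci weighed on these counts, since without it 35 genes rose and 29 fell. Without the 3 dpci plate 1 gene rose and 8 fell, and without plate 2 of 7 dpci 3 rose and 11 fell.

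Of the 6 genes that rose, FOS, BTG2 and SOCS3 are members of the immediate early list, of which 26 were tested and 0 fell. BTG2, an antiproliferative factor induced by stress, had 495.3 CPM at 3 dpci and 56.6, 128.7 and 149.2 CPM on the 7 dpci plates in nppb-high wells, against 81.6 and 87.4, 8.77 and 26.9 CPM in nppb-low wells. It was higher on 3 of the 4 plates, with a log2 fold change of 2.11 ± 0.45 (SE, edgeR adjusted p 0.0114). FOS had 958.2 CPM at 3 dpci and 0, 179.3 and 165.1 CPM on the 7 dpci plates in nppb-high wells, against 305 and 47.7, 14.6 and 40.4 CPM in nppb-low wells. Its log2 fold change was 1.76 ± 0.39 (SE, edgeR adjusted p 0.0122), and it too was higher on 3 plates of 4. SOCS3 was higher on all 4, with 694.3 CPM at 3 dpci and 94.4, 137.9 and 58.6 CPM on the 7 dpci plates in nppb-high wells, against 193.3 and 87.4, 26.3 and 6.73 CPM in nppb-low wells (1.69 ± 0.40, edgeR adjusted p 0.0254).

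These calls were not firm. A single well gave 32.1% of the nppb-high UMIs of BTG2, 37.2% of those of FOS and 42.8% of those of SOCS3. On plate 1 of 7 dpci, SOCS3 had only 5 UMIs in nppb-high wells and 11 in nppb-low wells. Under 13 alternatives, edgeR or DESeq2 adjusted p ranged from 1.56e-09 to 1 for BTG2, from 1.16e-09 to 1 for FOS and from 2.63e-06 to 1 for SOCS3, with 8, 8 and 7 of the 13 under 0.05. The direction was the same in all of them. Summed over the list, immediate early genes held 0.60% of UMIs in nppb-high wells and 0.188% in nppb-low wells at 3 dpci. On plates 2 and 3 of 7 dpci they held 0.125% and 0.0922% in nppb-high wells and 0.0421% and 0.0273% in nppb-low wells. On plate 1 of 7 dpci the order was turned, with 0.0510% in nppb-high wells and 0.204% in nppb-low wells. There, 1 well of 33649 UMIs made up 24.5% of the UMIs of the nppb-low group, and its part in that value was not tested. Per well, the groups lay closer on the 7 dpci plates. The median well held 0.163% in nppb-high and 0.0753% in nppb-low wells at 3 dpci. On plates 1, 2 and 3 of 7 dpci it held 0, 0.0195% and 0 in nppb-high wells, against 0.0354%, 0.0150% and 0 in nppb-low wells.

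**Figure D5:**
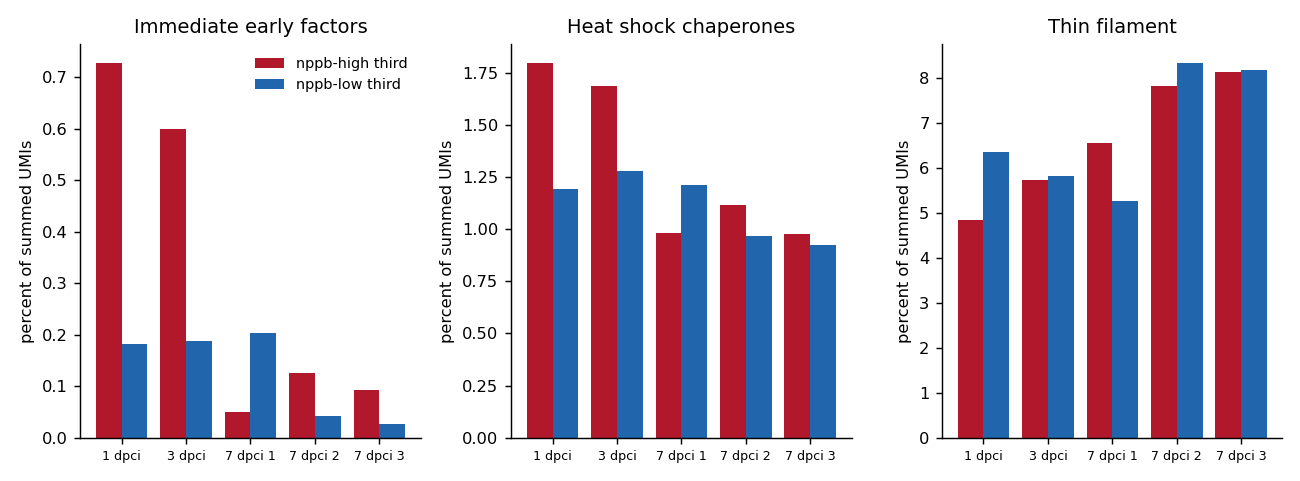
Percent of the summed UMIs held by 3 gene lists in nppb-high wells (left bar of each pair) and nppb-low wells (right bar) on each plate, from 1 dpci to the 3 plates of 7 dpci, with no error bars as each bar is 1 sum. Summed shares of immediate early genes were higher in nppb-high wells at 1 dpci, at 3 dpci and on plates 2 and 3 of 7 dpci. They were lower on plate 1 of 7 dpci. Thin filament genes held 4.84% in nppb-high and 6.35% in nppb-low wells at 1 dpci but 5.72% and 5.82% at 3 dpci.

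hspa1b, an inducible Hsp70, also rose (2.84 ± 0.61, SE, edgeR adjusted p 0.0114, and 3.02e-06 to 1 over 13 alternatives). It was higher on 4 of 4 plates, although 58.6% of its nppb-high UMIs came from 1 well. On plate 1 of 7 dpci it had only 3 UMIs in each group, and on plate 3 it had 7 in nppb-high and 2 in nppb-low wells. It is outside the heat shock list, of which 21 genes were tested and 0 called. ENSDARG00000087504 rose again (2.76 ± 0.36, SE, edgeR adjusted p 1e-06), with 67.2% of its nppb-high UMIs in 1 well. AQP8, named for an aquaporin and matched to the endothelial marker aqp8a.1, was called with 94.7% of its nppb-high UMIs in 1 well.

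Among the 11 genes that fell, the 3 of smallest adjusted p, ENSDARG00000070212, ENSDARG00000082180 and ENSDARG00000096145, have no symbol, and each was lower on 4 of 4 plates. ENSDARG00000070212 had a log2 fold change of -0.77 ± 0.11 (SE, edgeR adjusted p 5.08e-06). At 1 dpci these 3 IDs had ratios of 0.33, 0.24 and 0.29, in the opposite direction. MYH7, a myosin heavy chain, fell by 0.51 ± 0.11 on the log2 scale (edgeR adjusted p 0.0122) and was lower on 3 plates of 4. myh6 (ENSDARG00000090637), the atrial myosin, was called at -2.32 ± 0.48, but 95.2% of its nppb-low UMIs came from 1 well and its direction turned with the handling of ties. MYH6 (ENSDARG00000079564) fell at -2.09 ± 0.47 (SE, edgeR adjusted p 0.0136), with 68.3% of its nppb-low UMIs in 1 well.

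The remaining 5 were marcksl1b, tnfrsf9a, cd83, ccl35.2 and tmsb4x. cd83 and tnfrsf9a, which immune cells carry, were each found in 3 nppb-low wells, and the chemokine ccl35.2 in 4. The 2 macrophage markers tested had a median log2 fold change of -2.40. The 6 epicardial or fibroblast markers tested went the other way, with a median of 2.36 and 0 called. The part of either list in the genes called was not tested.

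All 39 genes past 2-fold higher at 1 dpci were tested on the other plates. The fitted log2 fold change was above 0 for 31 of them, with a median of 0.71, against -0.05 over all genes tested. edgeR called 3 of the 39, where 0.129% of all genes tested rose. Single plates were mixed for some of the 39. FLNC and si:dkey-153m14.1 were higher on 2 plates and lower on 2, and TTN (ENSDARG00000028213) was higher on 1 and lower on 3. The 6 genes past 2-fold lower at 1 dpci all had a fitted log2 fold change below 0, with a median of -0.45, and 0 were called. Single plates were mixed for most of them. ZNF106 was lower on 4 of 4 plates, and HIPK2 and ubap2b were lower on 3 and higher on 1. kcnj14, si:ch211-184m19.3 and CAVIN1 were lower on 2 and higher on 2. On plate 1 of 7 dpci, CAVIN1 had 0 CPM in nppb-high wells and 333.7 CPM (42 UMIs) in nppb-low wells. The fit of si:ch211-184m19.3 was only -0.08. nppa was higher in nppb-high wells on 4 of 4 plates, with 1477 CPM at 3 dpci and 509.8, 331 and 495.4 CPM on the 7 dpci plates, against 704.5 and 468.7, 254.2 and 201.9 CPM in nppb-low wells. Its log2 fold change of 0.64 ± 0.21 (SE) did not pass (edgeR adjusted p 0.402). hsp70.3 (1.63 ± 0.47, edgeR adjusted p 0.179) and myh7ba (1.1 ± 0.39, adjusted p 0.532) were higher on 4 of 4 plates and did not pass either. For hsp70.3 this rested on 5 UMIs in nppb-high and 4 in nppb-low wells on plate 1 of 7 dpci. On plate 3 its log2 ratio was only 0.08. myl7 had 0.01 ± 0.09, against -0.42 at 1 dpci, and whether this differs between the days was not tested.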

How the data were processed

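Single cells were processed by SORT-seq, which counts transcripts at their 3′ end. The deposited values are estimated counts: the authors' tables give UMIs for each gene in each well, adjusted for UMI collisions and not scaled. Per the methods, reads were mapped to Zv9, and the submitters' processing notes name BWA 0.6.2. The study's own filters on reads and wells are not applied in these tables, which hold ERCC and mitochondrial genes (2134888 UMIs with ERCC at 1 dpci). Doublets were gated out by the study and not called here.

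ERCC and mitochondrial genes (13 named and 2 unnamed IDs, whose share followed that of the named ones at a Pearson's r of 0.52 to 0.903 across wells) were left out of sums. A symbol was found for 12450 of 15393 IDs, often that of the human gene. Ratios at 1 dpci carry exact Clopper-Pearson intervals. Shares of wells at a common depth follow the hypergeometric distribution. For the other plates, values were rounded and summed per plate and group. The sums were tested with edgeR 4.0.16 (glmQLFit, TMM, mean of 10 CPM or more) and DESeq2 1.42.0, with SEs from the F statistic. The edgeR fit was also run on simulated counts. Those held no single wells of great weight and no ties broken by depth, so the run checks the code and not the calls. A fit with robust dispersion was run before the default one, which the design states and which is given. Python 3.11.15, scipy 1.17.1 and R 4.3.3 were used.

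Named genes were the 15 highest and 15 lowest ratios at 1 dpci among genes with 100 UMIs and found in 20% of wells, nppa, myl7, up to 4 members of each list and the 5 called genes of smallest adjusted p in each direction on the other plates. Other genes past 2-fold or called were named after their values were seen. Wells, genes and lists were chosen with earlier results of these data known. No label says whether plates share fish, so p-values measure the spread between plates, which may be technical. Alternatives covered UMI minimums, scaling, group cuts, well filters, thinning, ties and each plate left out.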

Additional observations from a re-analysis of the deposited data

Results flagged for a closer look

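nppb was also found in wells that the comparison left out. The 55 wells of the 1 dpci plate with at least 1000 UMIs and myl7 under 1% held 1322 nppb UMIs of 527218, a level of 2508 CPM (exact Poisson interval 2374 to 2646, counting error only), against 1111 CPM in the 228 wells that were kept. An nppb UMI was present in 70.9% of the wells left out and in 74.1% of the wells kept. The median depth of the wells left out was 5318 UMIs.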

How the results depend on the processing

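At 1 dpci the counts of genes past 2-fold (39 higher and 6 lower in nppb-high wells) moved by more than 1.5 times under several alternatives. A minimum of 50 UMIs gave 90 higher and 16 lower of 1158 genes, 200 UMIs gave 18 higher of 378, and no minimum 1568 higher and 938 lower of 11588. With each well weighed the same 2 were lower, with 500 UMIs per well 3, and without wells rich in markers of other cells 2. With myl7 at 3% there were 8 and 2, with thinning to 1000 UMIs 1 and 0, and without wells above 3 times the median depth 14 and 3. In alternatives chosen after seeing the data, 20 were higher without the deepest nppb-high well, and 20 higher and 3 lower without the highest well of each gene. Of the 28 genes past 2-fold that the rule named, 7 changed sign in an alternative. These were, with myl7 at 3%, ENSDARG00000087504 (-0.89) and TTN (ENSDARG00000028213, -0.50), and, with thinning, NR4A1 (-0.25), TTN (ENSDARG00000000563, -0.048), HK1 (-0.16), HIPK2 (0.27) and ubap2b (0.27). Some of the others kept their sign but came near 0 at the lowest, among them FLNC (0.01), MYC (0.01), nppa (0.04) and FOS (0.05). hsp70l and PHLDA2 stayed at 1.32 and 1.49 or above. Of the 50 named genes under 2-fold, 18 changed sign in at least 1 alternative, among them MYH6 (0.91, and -1.28 at the lowest), fkbp1aa (0.45 and -0.71), TXN (0.49 and -0.43), TBX20 (0.25 and -0.46) and HAND2 (-0.27, and 0.79 at the highest). Of all values of named genes but the 7 above, 1086 stayed within their counting interval and 233 moved.

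On the other plates (6 rose, 11 fell), DESeq2 gave 0 and 1, no filter on low counts 22 that fell, ties ranked by well order 17 that rose, the low group of all wells without nppb 16 and 112, and thinning 1 and 0. Leaving out 1 plate gave 1 to 35 that rose and 8 to 29 that fell. The block pairs both groups of a plate. With no replicate block edgeR called 0 and 0, with 56 and 56 at an unadjusted p under 0.05. In alternatives chosen after seeing the data, wells with against wells without an nppb UMI gave 11 and 103, and robust dispersion 7 and 15. myh6 (ENSDARG00000090637) turned to 3.85 with ties by well order and to 3.31 with thinning. The causes were not tested. Depth limited the 1 dpci comparison to genes with at least 100 UMIs.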
